A study of Caenorhabditis elegans with 2 samples.

Results

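The 7 genes described here make, carry and break down acetylcholine in the nematode Caenorhabditis elegans. They were chosen by name, as cha-1, unc-17, cho-1, ace-1, ace-2, ace-3 and ace-4, from 19973 nuclear protein-coding genes. The locus of a gene was its body plus 5000 bp upstream in the Ensembl release 115 annotation of the WBcel235 genome, which is the ce11 build of the deposited peak lists. The 7 loci were between 9580 bp and 15767 bp long. Because cha-1 shares sequence with unc-17, and ace-3 with ace-4, they merged into 5 separate stretches of 65840 bp in all.

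Acetylcholine is made from choline and acetyl-CoA by choline acetyltransferase, is loaded into synaptic vesicles by a vesicular transporter, and is cleaved in the synaptic cleft by acetylcholinesterases. The choline set free is taken back into the nerve terminal by a high-affinity transporter. The transcription factor UNC-3, which belongs to the COE family (Collier, Olf and EBF), is a terminal selector in cholinergic motor neurons: it switches on the genes which give that neuron type its lasting identity. COE factors bind DNA as dimers to a palindrome of paired arms around a short spacer.

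The study measured where UNC-3 sits on DNA by chromatin immunoprecipitation and sequencing (ChIP-seq) with an antibody against GFP. The animals were whole hermaphrodite late embryos of strain OP578, which has the unc-119(tm4063) allele on chromosome III and the integrated transgene wgIs578, collected 4 h after egg bleaching had synchronized them. The transgene encodes UNC-3 with a GFP-FLAG tag at its C-terminus, and what drives its expression is not stated in the labels. The 2 libraries are biological replicates of 1 group, with no second condition, so what follows describes positions and strengths of peaks and sets counts over the 7 genes beside the same counts over other genes. Whole organisms were used, and the cells in which a site was occupied cannot be told apart.

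Peaks numbered 20517 in replicate 1 and 21474 in replicate 2, in lists called permissively so that background was kept. A pooled list, called on both replicates together, held 15515 peaks. The list thresholded by the irreproducible discovery rate (IDR), a measure of how consistently peaks rank between replicates, held 754 peaks. These were exactly the 754 strongest of the pooled list. Membership thus coincided with a cut on pooled signal and is not read here as agreement of the replicates at each single site. Each peak has a summit, the position of its centre in nearly all cases, and a signal, the strength that the authors' peak caller gave it, whose scale is not stated in the labels or notes. Signals were compared only within a list, and rank 1 is the strongest peak of a list. Read depth is unknown.

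The strongest UNC-3 peak of the 7 loci was at cha-1 and unc-17, which overlap. It belonged to the IDR list and lay in intronic DNA of both genes, with its summit 7.5 bp from the centre of a COE palindrome. A second palindrome lay upstream of both genes beside a much weaker peak. The loci of cho-1 and of the 4 acetylcholinesterase genes held no IDR summit and no exact palindrome, and their pooled summits had signals of at most 35.8.

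The gene cha-1 encodes choline acetyltransferase (WBGene00000481, chrIV:3613931-3624697, minus strand, 11 exons). The gene unc-17 encodes the vesicular acetylcholine transporter (WBGene00006756, chrIV:3618259-3624699, minus strand, 4 exons). They form what is known as the cholinergic locus. Both use an exon 1 whose inner end is at position 3624632, and intron 1 of cha-1, which is 6856 bp long, holds exons 2 to 4 of unc-17. The IDR peak, at chrIV:3621683-3622162, lay wholly within intron 2 of unc-17 and therefore also within intron 1 of cha-1.

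The DNA around the 2 exact palindromes is shown because these are the only matches to the motif TCCCNNGGGA in the 7 loci. The motif equals its own reverse complement and was searched on both strands. The first sequence is the centre of the IDR peak, at chrIV:3621823-3622063. The second surrounds the upstream palindrome, at chrIV:3627619-3627718. The third, at chrIV:3621938-3621987, overlaps the first and marks a copy with 1 mismatch in an arm. All are read 5′ to 3′ on the plus strand of the RefSeq WBcel235 genome, and capitals mark the palindrome or its near copy.
intronic palindrome: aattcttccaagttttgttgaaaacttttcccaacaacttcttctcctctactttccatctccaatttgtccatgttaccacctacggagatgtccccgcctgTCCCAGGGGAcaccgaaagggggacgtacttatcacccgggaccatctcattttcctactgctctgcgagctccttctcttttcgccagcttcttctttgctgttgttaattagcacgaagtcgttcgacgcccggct
upstream palindrome: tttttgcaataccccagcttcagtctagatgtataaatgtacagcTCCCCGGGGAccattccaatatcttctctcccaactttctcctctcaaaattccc
intronic near copy: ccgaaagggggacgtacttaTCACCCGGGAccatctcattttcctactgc

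The intronic palindrome, TCCCAGGGGA at chrIV:3621926-3621935, was 7.5 bp from the summit in the IDR, pooled and replicate 2 lists and 102.5 bp from the replicate 1 summit. The near copy at chrIV:3621958-3621967 was 39.5 bp from the pooled summit and 70.5 bp from the replicate 1 summit. The replicate 1 summit was thus nearer to the near copy, and the replicate 2 summit nearer to the exact palindrome. The upstream palindrome, TCCCCGGGGA at chrIV:3627664-3627673, lay 2967 bp upstream of cha-1 in intergenic DNA. It was 45.5 bp from a pooled summit and 46.5 bp from a replicate 2 summit, but 1216.5 bp from the nearest replicate 1 summit. Its spacer makes the whole 10 bases symmetric, whereas the intronic palindrome has an asymmetric spacer.

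An exact palindrome was present in the loci of 2 of the 7 genes, which are the same 2 palindromes counted for both genes, and in 2.8% of all protein-coding loci. Among 2810 genes with loci between 9580 and 15767 bp, a range set by the members' own lengths, the share was 4.45%, and 0.249% had 2 or more. Within 100 bp of a summit, 2 of the 14 pooled summits in the members' loci had a palindrome (14.3%), against 0.813% of all 15499 nuclear pooled summits and 4.99% of the 741 nuclear IDR summits. In windows centred 1000 bp to either side of the pooled summits the share was 0.129%. Most palindromes had no nearby peak: of 390 in the nuclear genome, 130 (33.3%) were within 100 bp of a pooled summit and 39 within 100 bp of an IDR summit. The intronic palindrome was among those 39, and the upstream one was among the 130 but not the 39. Of 34 palindromes with the spacer of the intronic one, counted on either strand, 29.4% were near a pooled summit. Of 33 with the spacer of the upstream one, 39.4% were.

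The IDR summit, at position 3621923, was 2774 bp into cha-1 and 2776 bp into unc-17. Its pooled signal was 75.5, rank 468. That is below the IDR list's median of 84.6, so the strongest site of the acetylcholine genes ranked below the middle of that list. In replicate 1 the overlapping peak had a signal of 30.7, rank 753, with its summit 110 bp from the pooled one. In replicate 2 the peak had a signal of 49.6, rank 323, with its summit at the same base as the pooled one, and a weaker peak of signal 13.2, rank 11633, overlapped it. The deposited −log10 q was 1.39 in replicate 1 and 2.10 in replicate 2, where the highest values of the lists were 1.60 and 2.10. The peaks of both replicates overlapped, but the replicate 1 summit missed the 100 bp limit that is used below to call a summit matched.

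**Figure D1:**
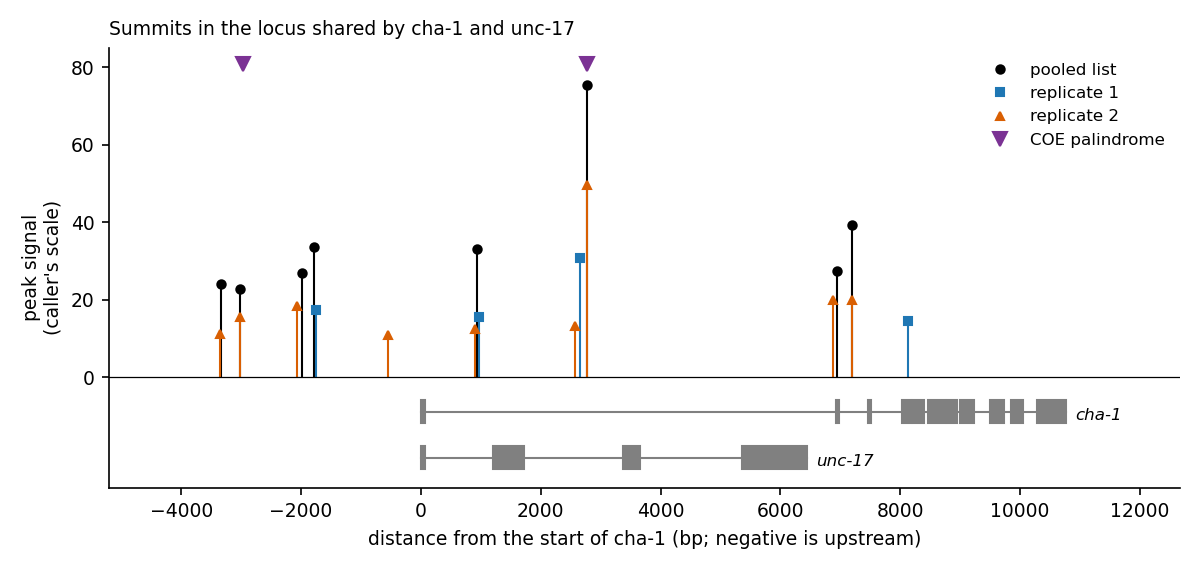
Peak signal on the caller's scale (vertical axis) against distance from the start of cha-1 in bp (horizontal axis, negative is upstream) for the pooled list (circles), replicate 1 (squares) and replicate 2 (upward triangles), with the exons of cha-1 and unc-17 drawn as boxes to scale below. The highest point in each list, 75.5 pooled, 30.7 in replicate 1 and 49.6 in replicate 2, lies in intron 1 of cha-1 and intron 2 of unc-17, and downward triangles mark the 2 exact palindromes.

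The cha-1 locus held 8 pooled summits and the unc-17 locus held 6 of these, since the stretch upstream and the body of unc-17 belong to both. Apart from the IDR summit, a pooled summit of signal 33.1, rank 3321, lay in intron 1 of both genes, 931 bp from the start of cha-1. It was matched in replicate 1 at 38 bp, with a signal of 15.5, and in replicate 2 at 28 bp, with a signal of 12.5. It was the only summit of this locus with a summit within 100 bp in both replicates.

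Upstream of both genes, 4 pooled summits lay between 1778 bp and 3343 bp from the start of cha-1. Their signals were 33.5, 26.9, 22.8 and 24.1 in order of distance, and the third of these, rank 11003, was the one beside the upstream palindrome. The nearest of the 4 to the gene was matched in replicate 1 at 23 bp, and the other 3 were matched in replicate 2, at 82 bp, 1 bp and 2 bp. Replicate 1 therefore had no peak at the upstream palindrome, where replicate 2 had one of signal 15.4, rank 7263. Replicate 2 alone also had a weak peak 541 bp upstream of cha-1, of signal 10.8, rank 19186.

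In the part of cha-1 that unc-17 does not reach, the pooled list had a summit in intron 2, 7193 bp from the start. Its signal was 39.3, rank 1999, the highest among the members' 13 pooled summits below the IDR list. A second pooled summit, of signal 27.5, rank 6055, lay 6942 bp from the start in coding sequence. Replicate 2 had a summit at the same base as the first, with a signal of 19.8, and 55 bp from the second, with a signal of 19.9. Replicate 1 had neither, and its nearest summit was 942 bp away in coding sequence, with a signal of 14.4. A near copy of the palindrome, CCCCATGGGA at chrIV:3617671-3617680 in intron 2 of cha-1, was 79.5 bp from the coding summit.

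The gene cho-1 encodes the high-affinity choline transporter that returns choline to the nerve terminal (WBGene00000501, chrIV:13209730-13214566, minus strand, 9 exons). Its locus held 1 pooled summit, 1130 bp upstream, with a signal of 26.2, rank 7079. Replicate 1 had a summit 9 bp away, with a signal of 16.4, rank 5942. The nearest replicate 2 summit was 1183 bp away, with a signal of 12.3. Replicate 1 had 2 further upstream peaks in the locus and replicate 2 had 2, all 4 with signals between 10.8 and 14.9. No summit of either replicate in the locus had a summit of the other within 100 bp. The replicate 2 peak of signal 14.9 overlapped the stronger peak described next, and its summit was 184 bp from the replicate 1 summit there. Matches to the palindrome with 1 mismatch, 3 in number, lay in the body of cho-1, and each was at least 938.5 bp from a summit in every list. Those at chrIV:13210366-13210375 and chrIV:13210367-13210376 overlap, so the 3 are not separate places.

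A stronger peak lay just past the end of the cho-1 locus. Its pooled summit, at chrIV:13219611, was 45 bp outside the 5000 bp limit and had a signal of 44.9, rank 1435, which is higher than that of every pooled summit inside the members' loci other than the IDR summit. Replicate 1 had a signal of 30.5, rank 762, there, and replicate 2 had a signal of 22.0, rank 2308, with its summit 126 bp outside. The nearest protein-coding start was that of C48D1.5, 2346 bp away. The strongest value for cho-1 is therefore set by the limit: counting peaks that overlap the locus, in place of summits inside it, gave 44.9 instead of 26.2.

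Acetylcholinesterase is encoded by several genes in the nematode, of which ace-1 and ace-2 are known to provide most of the enzyme activity. The gene ace-1 (WBGene00000035, chrX:16367293-16373789, plus strand, 10 exons) had 1 pooled summit, 209 bp upstream of its start, and this was the pooled summit nearest to the start of any member. Its signal was 24.5, rank 8858. Replicate 2 had a summit 16 bp away, with a signal of 22.0, rank 2303. The nearest replicate 1 summit was 3271 bp away. The replicate 1 peaks of the locus lay 3480 bp upstream, with a signal of 14.2, and in intron 6, with a signal of 16.8. Replicate 2 had a second peak in coding sequence, with a signal of 10.54, rank 20324.

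The sequence beside the ace-1 start is shown because it holds the match nearest to a summit in this locus, 1 mismatch from the palindrome, at chrX:16366949-16366998 on the plus strand of the RefSeq WBcel235 genome. Capitals mark the match, which was 324 bp upstream of the gene, 110.5 bp from the pooled summit and 94.5 bp from the replicate 2 summit.
ace-1 upstream near copy: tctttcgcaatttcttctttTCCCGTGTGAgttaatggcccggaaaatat

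Lying head to tail on chromosome II, ace-4 (WBGene00000038, chrII:14198046-14205460, 17 exons) and ace-3 (WBGene00000037, chrII:14205635-14210214, 8 exons) are both on the plus strand. The enzyme encoded by ace-3 is known to contribute little of the total activity, and ace-4 is known to be transcribed together with it. Their loci shared 1 pooled summit, in intron 8 of ace-4, 3368 bp from the start of ace-4 and 4221 bp upstream of ace-3. Its signal was 35.8, rank 2579. Replicate 1 had a summit 35 bp away, with a signal of 27.0, rank 1033, and no replicate 2 peak overlapped it, the nearest summit being 1865 bp away. At this site replicate 1 thus had one of its stronger peaks and replicate 2 had none. Upstream of ace-4, replicate 2 had a peak of signal 11.2, rank 17796, 1023 bp from the start. It was 73.5 bp from a near copy of the palindrome, TCCCATGGAA at chrII:14197092-14197101.

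Replicate 2 in turn had a peak of signal 19.0, rank 3666, in intron 1 of ace-4, 273 bp from its start, that overlapped no replicate 1 or pooled peak. Weak replicate summits, 3 in all, lay in intron 11 of ace-4, with signals of 13.8 and 11.9 in replicate 1 and 11.9 in replicate 2. At the far upstream end, a pooled summit of signal 30.7, rank 4239, lay 210 bp outside the ace-4 locus, and replicate 1 had a peak of signal 11.8 just inside it.

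The gene ace-2 (WBGene00000036, chrI:3301368-3307935, minus strand, 10 exons), the other main acetylcholinesterase gene, had 3 pooled summits and no palindrome, even with 1 mismatch allowed. One was in an intron near the 3′ end, with a signal of 26.8, rank 6548, and was matched in replicate 2 at 6 bp but not in replicate 1. Another lay 4423 bp upstream, with a signal of 28.7, rank 5248. It was matched in both replicates, at 18 bp in replicate 1, with a signal of 15.2, and at 13 bp in replicate 2, with a signal of 12.9. The last, 4624 bp upstream, had a signal of 20.4, rank 14891, the weakest pooled summit of any member, and was matched in replicate 2 at 19 bp, with a signal of 11.1. Replicate 1 also had peaks 1076 bp upstream, with a signal of 10.9, and 2259 bp upstream, with a signal of 14.4, that overlapped no pooled or replicate 2 peak. The upstream pair lies near the limit of the locus, and a further pooled summit, rank 3323, lay 381 bp beyond it.

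**Figure D2:**
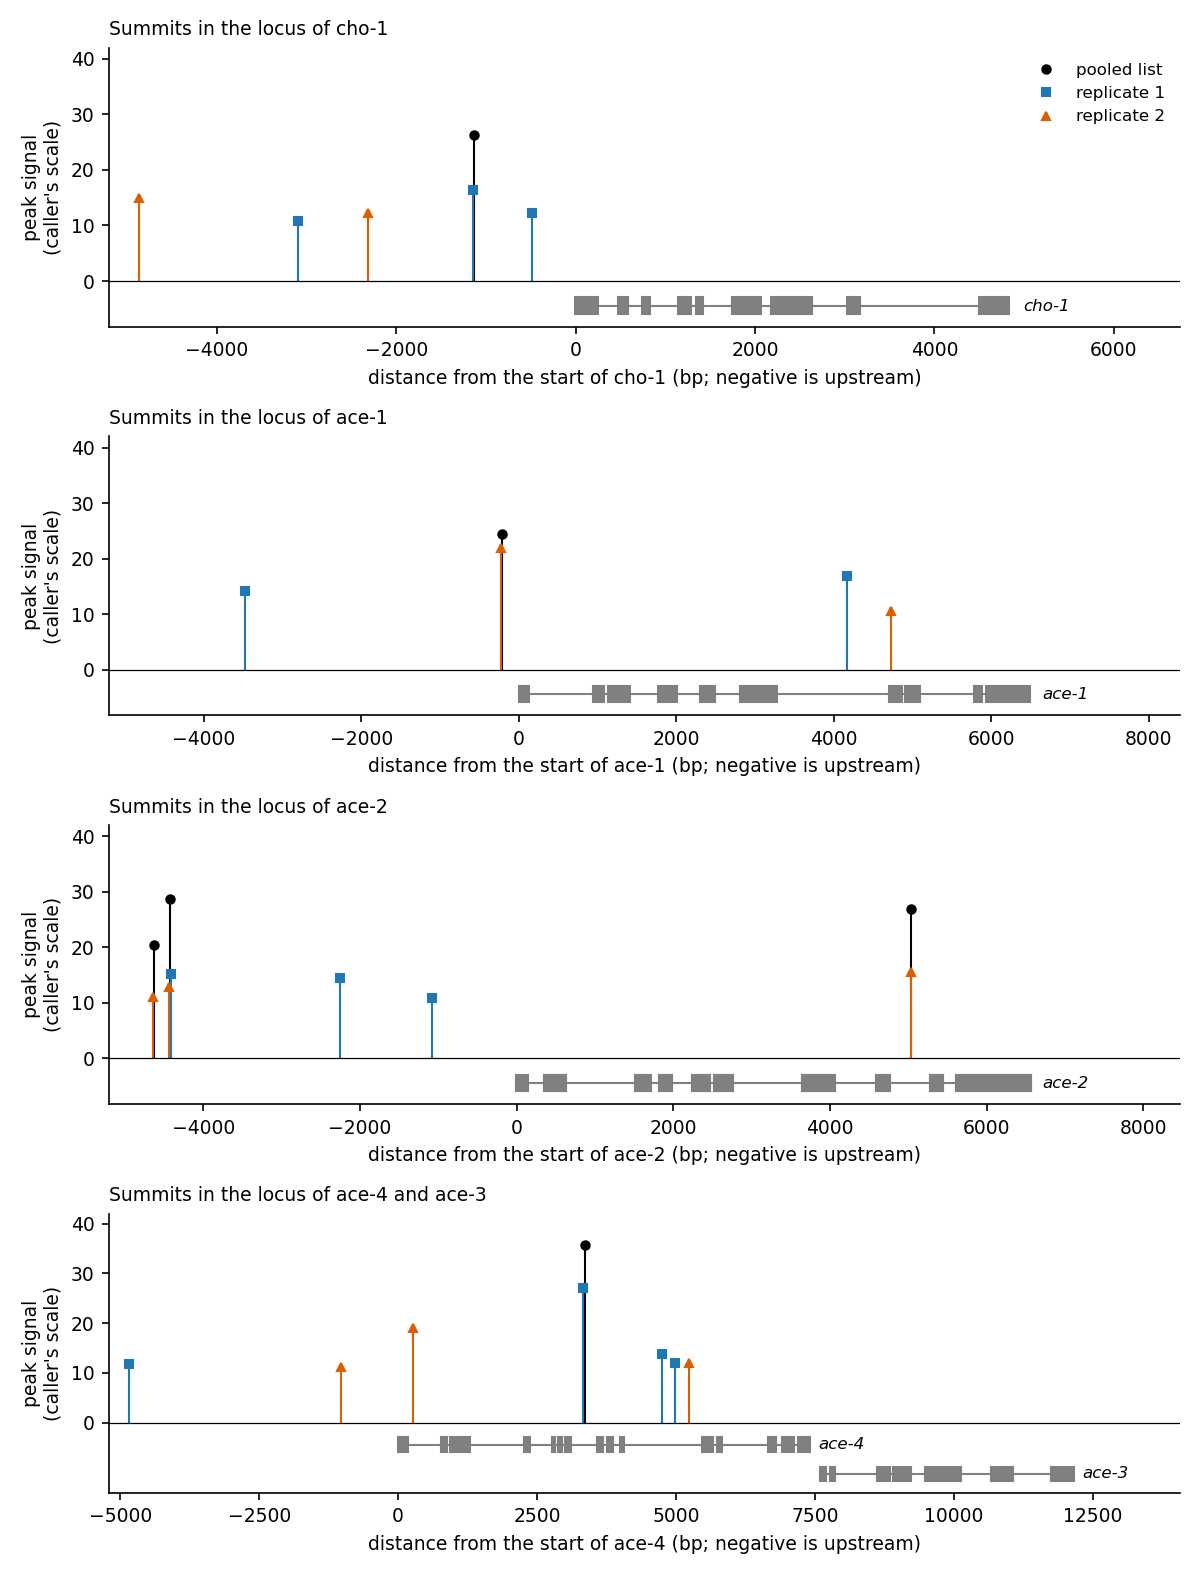
Peak signal on the caller's scale (vertical axes, the same range in each panel) against distance in bp from the start of cho-1, ace-1, ace-2 and ace-4 (horizontal axes, negative is upstream) for summits inside the loci, with symbols as named in the key and exons as boxes to scale. No pooled point exceeds 35.8, the summit in intron 8 of ace-4, where replicate 1 has a point of 27.0 and replicate 2 has none.

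An IDR summit lay in the loci of 2 of the 7 genes, cha-1 and unc-17, through the same peak. Among all protein-coding genes 6.36% had one, and among the 2810 genes with loci of like length 10.2%. Counted by stretch of DNA, 1 of the 5 merged loci had one. A pooled summit lay in the locus of each of the 7 genes, but 60.4% of all protein-coding genes and 81.3% of those with loci of like length also had one, so this count does not set the acetylcholine genes apart. The pooled list had 2.13 summits per 10 kb of the members' loci and 1.55 per 10 kb of the nuclear genome. By gene the pooled density was 5.07 at cha-1, 5.24 at unc-17 and 2.59 at ace-2. It was 1.02 at cho-1, 0.87 at ace-1, 1.04 at ace-3 and 0.805 at ace-4, all below the genome's value. The IDR list had 0.152 per 10 kb in the loci, from 1 peak, and 0.0739 in the genome.

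The strongest pooled signal ordered the genes as cha-1 and unc-17 (75.5, the same peak), ace-3 and ace-4 (35.8, the same peak), ace-2 (28.7), cho-1 (26.2) and ace-1 (24.5). The value of ace-3 came from the summit inside ace-4, and a limit of 2000 bp upstream left ace-3 with no pooled summit. Among all protein-coding genes, 4.17% had a stronger pooled summit in their loci than cha-1 and unc-17, 17.7% a stronger one than ace-3 and ace-4, 29.6% than ace-2, 36.6% than cho-1 and 42.7% than ace-1. Long loci catch more peaks, and within the 2810 genes of like length these shares were 6.73%, 28.9%, 46.8%, 55.8% and 63.1%. The median strongest pooled signal of those genes was 27.8, with a middle range from 21.5 to 38.1, so that every member other than cha-1 and unc-17 fell inside the middle range.

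The replicates did not give the same order. In replicate 1, cha-1 and unc-17 were first at 30.7, ace-3 and ace-4 next at 27.0, and ace-1, cho-1 and ace-2 followed between 15.2 and 16.8. In replicate 2, cha-1 and unc-17 were first at 49.6, ace-1 was next at 22.0 and ace-4 next at 19.0. The values of ace-2 and cho-1 in replicate 2 were 15.6 and 14.9, and ace-3 was last at 11.9. The genes cha-1 and unc-17 were first in both replicates and in the pooled list, and cho-1 had 5 members above it in all 3.

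**Figure D3:**
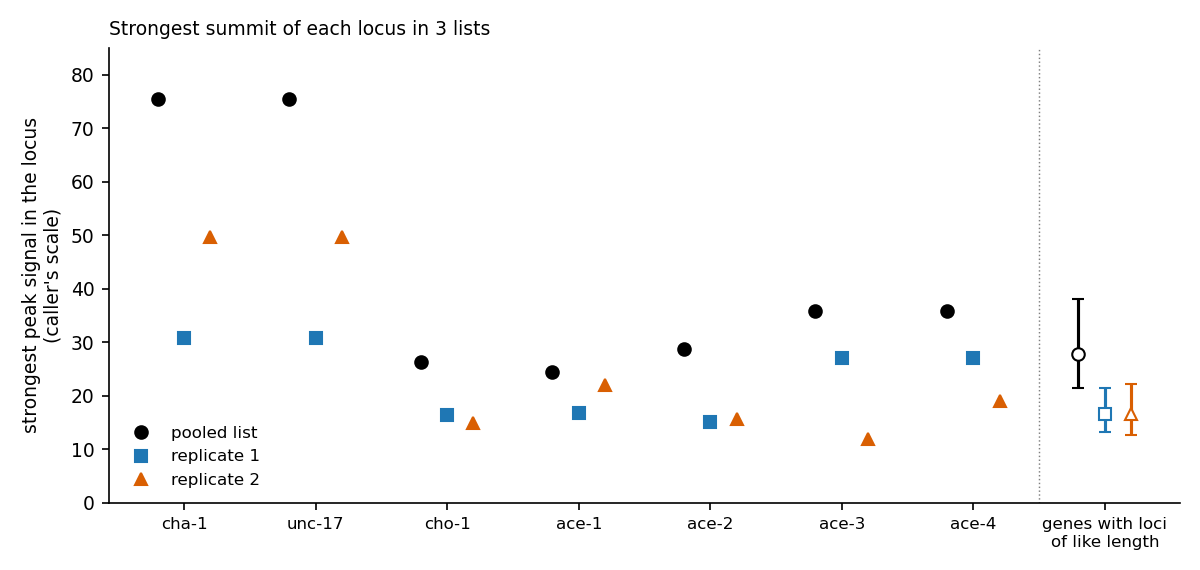
Strongest peak signal in the locus of each gene (vertical axis, caller's scale) in the pooled list (circles), replicate 1 (squares) and replicate 2 (triangles), with open symbols and bars at the right for the median and the 25th to 75th percentile of the 2810 genes with loci of like length. The points of cha-1 and unc-17 come from the same peaks and are the highest in each list, and ace-3 is high in replicate 1 (27.0) and low in replicate 2 (11.9).

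By number of pooled summits, cha-1 with 8 and unc-17 with 6 stood at the upper end. Of the genes with loci of like length, 0.747% had at least 8 and 4.73% at least 6, with a median of 2 and a highest count of 13. The locus of cha-1 is the longest of that range, and 6 of its summits are those of unc-17. These are counts of summits and not of separate sites, because several peaks overlap each other. The pooled peaks 1778 bp and 1990 bp upstream of cha-1 overlap, as do those 3017 bp and 3343 bp upstream. So do the peaks 6942 bp and 7193 bp from its start, inside the gene. The genes with loci of like length were counted in the same way. The gene ace-2 had 3, as 35.3% of those genes had at least that many, and cho-1, ace-1, ace-3 and ace-4 had 1 each.

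**Figure D4:**
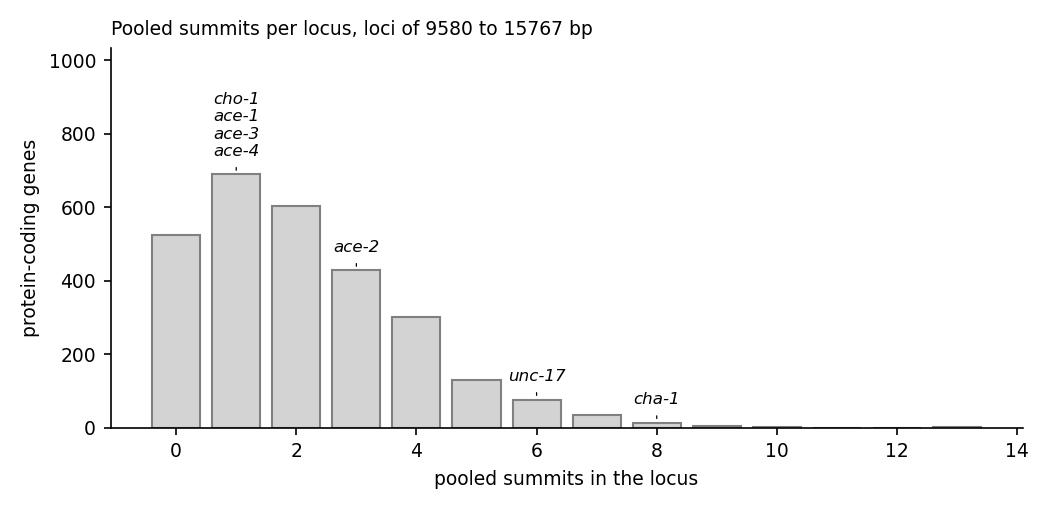
Number of protein-coding genes (vertical axis) by number of pooled summits in the locus (horizontal axis) for the 2810 genes with loci between 9580 and 15767 bp, with the 7 acetylcholine genes written above the bar they belong to. The genes cha-1 (8) and unc-17 (6) sit in the sparse upper tail, ace-2 has 3, and the other 4 genes have 1.

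Agreement between the replicates varied from site to site. Of the 14 pooled summits, 5 had a replicate 1 summit within 100 bp, 11 had a replicate 2 summit, and 2 had both, the one in intron 1 of cha-1 and unc-17 and the one 4423 bp upstream of ace-2. Over all pooled summits, 56.4% were matched in replicate 1, 58.9% in replicate 2 and 27.3% in both. By overlap of peak intervals, a looser measure chosen after seeing the data, 6 of the 14 (42.9%) overlapped peaks of both replicates, 2 (14.3%) of replicate 1 alone and 6 (42.9%) of replicate 2 alone. The IDR peak was among the 6 that overlapped both. Also among them, the peaks 1778 bp and 1990 bp upstream of cha-1 overlapped the same peak in each replicate. Those 4423 bp and 4624 bp upstream of ace-2 overlapped the same replicate 1 peak. The 6 are therefore not 6 separate agreements. Over all pooled peaks this measure fell with rank, and its shares are given by rank below.

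The 2 strongest pooled peaks below the IDR list, in intron 2 of cha-1 and in intron 8 of ace-4, each overlapped a peak of 1 replicate only, replicate 2 for cha-1 and replicate 1 for ace-4. Among all pooled peaks ranked 755 to 3000, 91.3% overlapped peaks of both replicates, 5.75% of replicate 2 alone and 2.99% of replicate 1 alone. Of those ranked 1 to 754, 100% overlapped both, and of those ranked 3001 to 6000, 66.4% did. Among those ranked past 6000, where 8 of the members' pooled summits fell, 32.3% overlapped both. The deposited −log10 q of the members' 13 pooled peaks below the IDR list ran from 0.021 to 0.745, against 1.87 for the IDR peak. That value was the same for every peak of the IDR list and was the highest in the pooled list.

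Of the 14 pooled summits, 8 were intergenic, 5 intronic, 1 in coding sequence and 0 in an untranslated region. The loci include 5000 bp upstream by rule, and no share of these classes over all pooled summits is given here. The share of G and C within 100 bp of a summit ran from 30.3% to 48.3%, highest at the IDR summit, and the median over all pooled summits was 36.3%. No pooled summit of the members was closer than 11029 bp to a tRNA gene.

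Among the 37 nuclear IDR peaks with a palindrome within 100 bp of the summit, the cha-1 and unc-17 site was in place 22 by pooled signal. The 3 places above it were nearest to the starts of F15G9.5 (80.8), unc-2 (78.5), a calcium channel gene, and F58H1.5 (75.8). The 3 places below were nearest to those of ZC155.2 (72.5), Y49G5A.1 (70.6) and C13A2.12 (70.6). The replicate 1 signal was 30.7 at the cha-1 and unc-17 site, below the range of 31.4 to 39.6 at the other 6. The replicate 2 signal was 49.6, above their range of 32.1 to 37.6. Its 110 bp between the replicate 1 and pooled summits compares with 0 to 100 bp at the other 6. Those 6 were chosen for their like pooled signals, and pooled peaks were called on both replicates together. The contrasts in the replicate 1 and replicate 2 signals may therefore not be independent of each other.

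**Figure D5:**
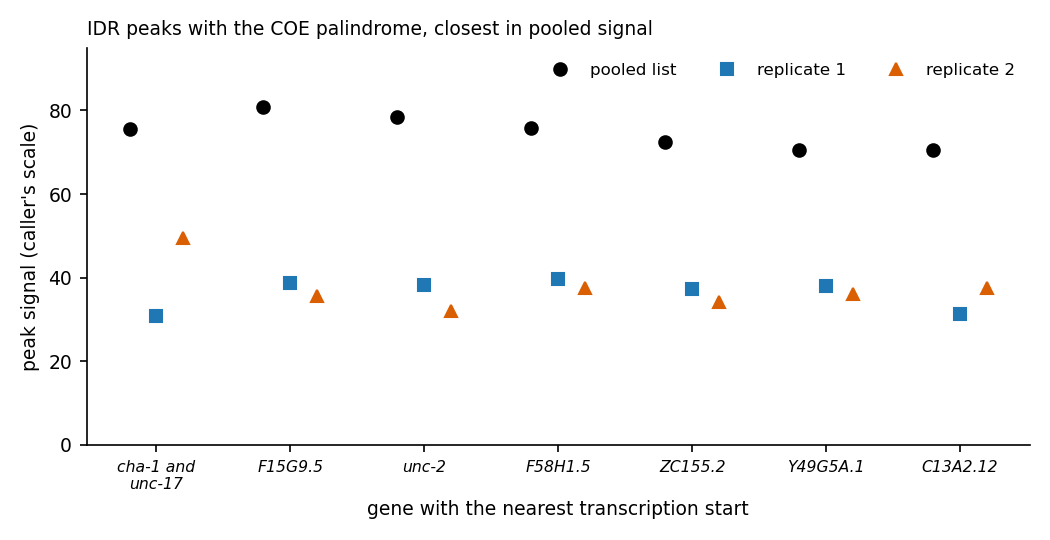
Peak signal on the caller's scale (vertical axis) in the pooled list (circles), replicate 1 (squares) and replicate 2 (triangles) at the IDR peak of cha-1 and unc-17 and at the 6 palindrome-bearing IDR peaks closest to it in pooled signal (horizontal axis, by gene with the nearest transcription start). The pooled points run from 70.6 to 80.8, and the cha-1 and unc-17 site has the lowest replicate 1 point (30.7) and the highest replicate 2 point (49.6).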

How the data were processed

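The authors deposited narrowPeak lists of a score (the caller's signal) and a −log10 q-value per peak. Per the notes deposited with the lists, the replicate lists were called against a control, with background kept as input for IDR, and the IDR list derives from the replicate and pooled lists. The control library was not analysed here. Not given in the sources used here are the aligner, the caller, the IDR threshold and the read depth, so no interval is given.

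From the ce11 lists, summits were assigned to loci (Ensembl release 115), ranked by signal within each list, matched between lists within 100 bp, and searched for the palindrome within 100 bp in the RefSeq WBcel235 genome (Python 3.11.15, numpy 2.4.6, pandas 2.3.3, matplotlib 3.10.9). The palindrome search, the assignment of summits to loci and the finding of the nearest summit were tested on simulated data. Ranking and matching between lists were not tested in this way. Named genes were all members, the genes nearest to the 3 palindrome-bearing IDR peaks above and the 3 below the strongest member site, and genes nearest to a member site. Genes of the comparison lists in the closing section were named after their values were seen. With 1 group of 2 replicates no test was run. Members and gene lists were chosen with earlier results of these data known. Peaks just outside the loci were added after their values were seen. Alternatives covered the locus limits, the match and palindrome distances, signal thresholds and each replicate alone.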

Additional observations from a re-analysis of the deposited data

How the results depend on the processing

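Of 34 alternative counts, 23 stayed within 1.5 times the main count. The strongest signals of the genes had 35 further alternatives, of which 16 were scored as the same. These include each replicate alone, whose signals come from a different list. The 2 genes with an IDR summit became 0 when only IDR peaks at or above that list's median signal were used, and 1 (cha-1) when each summit went only to the gene with the nearest start, a setting chosen after seeing the data. Gene bodies alone gave 4 genes with a pooled summit in place of 7, 6 pooled summits in place of 14, 1 summit matched in both replicates in place of 2, and 1 summit with a palindrome in place of 2. A limit of 2000 bp upstream also gave 1 matched summit and 1 with a palindrome. The matched summits were 4 when peaks overlapping a locus were counted, 5 with a match within 250 bp, and 6 by overlap of peak intervals, added after seeing the data. In gene bodies alone the strongest pooled signals of cho-1, ace-1 and ace-3 became 0, and that of ace-3 also with 2000 bp upstream. Under both of these limits the value of ace-2 went from 28.7 to 26.8. No paired analysis was possible because there is 1 group and no test. Limits: depth and the signal scale are unknown, 2 replicates give no error for a signal, peaks have nearly fixed widths, and 13 of the 14 pooled summits lie below the IDR list, in lists that keep background.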

Other observations

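Of 12 other genes, made up of the acetylcholine transporter gene snf-6 and genes of choline lipid metabolism, 2 had an IDR summit in the locus. A pooled summit lay in the loci of 10 of the 12. Over all protein-coding genes 6.36% had an IDR summit and 60.4% a pooled one, and over genes with loci as long as those of the acetylcholine genes 10.2% and 81.3%. The 2 with an IDR summit, the choline kinase genes ckb-2 and ckb-3, shared 1 peak of signal 86.9, rank 353. The locus of snf-6, which encodes a transporter known to take up acetylcholine at neuromuscular junctions, had 7 pooled summits and no IDR summit, with a highest signal of 45.1, rank 1415. Of 15 genes for the synthesis, transport and breakdown of GABA, monoamines and glutamate, 10 had a pooled summit, and 2 had an IDR summit, cat-1 (114.8, rank 185) and cat-2 (90.9, rank 320). These counts are small, and those for pooled summits are near the shares over other genes. The median strongest pooled signal was 28.7 over the 5 separate acetylcholine loci. With the 7 genes counted separately it was 35.8, which counts 2 peaks more than once. The median was 23.8 over snf-6 and the choline lipid genes together (12 genes) and 25.2 over the 15 other transmitter genes. Over genes with loci of like length it was 27.8, and over all protein-coding genes 22.6. The acetylcholine loci were thus close to loci of like length by this measure.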
